A study of Mus musculus with 51 samples.

Results

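The genes described here encode the D-type cyclins (Ccnd1, Ccnd2 and Ccnd3), the kinase Cdk6 that they activate, and inhibitors of cyclin-dependent kinases from the CIP/KIP family (Cdkn1a, Cdkn1b and Cdkn1c) and the INK4 family (Cdkn2a, Cdkn2b and Cdkn2c). These 10 genes were chosen by name, not by a measured value, out of the 22359 coding genes of the mm9 annotation. For each gene, every H3K27ac and H3K4me1 peak that overlapped the gene body or the 20 kb on either side was taken. Counting each peak once, these windows contained 54 H3K27ac peaks in aNPC and 43 in each of eA and lA, out of 79413, 83433 and 92700 in the whole lists. They held 97, 106 and 113 H3K4me1 peaks, out of 154238, 185478 and 208333.

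The data are ChIP-seq peak lists from the differentiation of mouse embryonic stem cells (strain background C57/BL-6 in the labels) into astrocytes in culture. Astrogliogenic neural precursors (aNPC) were grown with N2, EGF and FGF-2. They were then moved to DMEM with FBS and LIF for 1 day (early astrocytes, eA) or 5 days (late astrocytes, lA). None of the groups used here carried a knockdown. Each list stands for 2 samples, whose reads the authors merged before they called peaks without an input control. There was thus 1 list per stage and mark, no spread between cultures could be given, and no difference between stages was tested. Peaks of different lists are compared by presence and by rank, since the depth of the merged libraries is unknown. Their widths, which can also move with depth, are given as a description. The rank of a peak is given as the share of its own list with a lower −log10 q. A gene or region without a listed peak may still carry the mark below the threshold of the peak caller. The cultures were not sorted, so a peak that is absent at a stage cannot be told apart from a peak present in too few of the cells. Promoter peaks of H3K27ac were listed at all 3 stages for the astrocyte genes Gfap and Slc1a3 and for the progenitor genes Nes, Sox2 and Pax6. They were listed in eA and lA for Gja1, in lA only for Aqp4, in aNPC only for S100b, and at no stage for Aldh1l1, Olig2, Pou5f1, Nanog, Dcx and Rbfox3, while Tubb3 had one at every stage. With 1 kb on either side of a start, Olig2 and Gja1 had such a peak at all 3 stages and Rbfox3 had one in eA.

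D-type cyclins are made in response to growth factors, and with CDK4 or CDK6 they phosphorylate the retinoblastoma protein, which frees E2F factors to drive entry into S phase. INK4 proteins bind CDK4 and CDK6 and keep the cyclin out, whereas CIP/KIP proteins bind cyclin and kinase complexes and chiefly block those of CDK2. In the brain, cyclin D2 and CDK6 are known for their part in the division of neural progenitors. H3K27ac is found at active promoters and enhancers, and H3K4me1 marks enhancers whether or not they are active.

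To show the DNA under the peaks that the results turn on, 200 bp around a summit were read from the plus strand of mm9 for 9 regions. Capitals mark exact matches, on either strand, to AP-1 TGANTCA, CRE TGACGTCA, NF1 half-site TTGGCA, RUNX TGTGGT, STAT TTCNNNGAA, SOX ATTGTT, E-box CANNTG or FOX TGTTTAC. The first set held H3K27ac in aNPC and none in lA, and comprises an intron of Cdk6 61.8 kb downstream of its start (chr5:3405594-3405793), an intron of Ccnd2 17.8 kb downstream of its start (chr6:127083186-127083385) and the promoter of Ccnd1 (chr7:152126039-152126238).
Cdk6 intron: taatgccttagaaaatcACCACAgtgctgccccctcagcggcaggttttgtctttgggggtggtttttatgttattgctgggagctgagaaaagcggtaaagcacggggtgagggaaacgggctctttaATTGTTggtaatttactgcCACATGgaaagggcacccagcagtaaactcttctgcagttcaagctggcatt
Ccnd2 intron: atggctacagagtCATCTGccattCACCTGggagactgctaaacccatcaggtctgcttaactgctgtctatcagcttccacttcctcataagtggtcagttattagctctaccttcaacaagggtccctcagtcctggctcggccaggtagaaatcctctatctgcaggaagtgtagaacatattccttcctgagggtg
Ccnd1 promoter: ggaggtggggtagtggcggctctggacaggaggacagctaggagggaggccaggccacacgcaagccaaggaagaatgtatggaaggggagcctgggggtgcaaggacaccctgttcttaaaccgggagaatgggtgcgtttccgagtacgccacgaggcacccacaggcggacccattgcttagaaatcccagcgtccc
The second set held H3K27ac in lA and none in aNPC, and comprises the upstream promoter of Ccnd3 (chr17:47641722-47641921), an intron of Ccnd3 13.2 kb downstream of its start (chr17:47655082-47655281) and a site 13.1 kb from the start of Cdkn1c, beyond its 3′ end (chr7:150633711-150633910).
Ccnd3 promoter: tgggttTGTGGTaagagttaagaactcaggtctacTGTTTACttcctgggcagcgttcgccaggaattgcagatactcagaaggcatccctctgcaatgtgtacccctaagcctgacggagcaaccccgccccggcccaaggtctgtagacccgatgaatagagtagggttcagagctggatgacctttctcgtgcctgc
Ccnd3 intron: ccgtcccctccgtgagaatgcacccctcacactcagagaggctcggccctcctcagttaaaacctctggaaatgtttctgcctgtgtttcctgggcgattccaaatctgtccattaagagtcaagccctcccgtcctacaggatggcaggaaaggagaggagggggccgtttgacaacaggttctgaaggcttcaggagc
Cdkn1c downstream: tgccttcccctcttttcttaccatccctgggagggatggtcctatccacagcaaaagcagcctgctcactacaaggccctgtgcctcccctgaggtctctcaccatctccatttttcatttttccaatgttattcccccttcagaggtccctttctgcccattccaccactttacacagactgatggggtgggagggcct
The remaining set held H3K27ac at all 3 stages, and comprises a site 12.3 kb upstream of Cdkn1a (chr17:29215508-29215707), a site 7.02 kb from the start of Cdkn1b, beyond its 3′ end (chr6:134877337-134877536), and an intron of Cdkn2a 7.73 kb from its most upstream start (chr4:88932728-88932927).
Cdkn1a upstream: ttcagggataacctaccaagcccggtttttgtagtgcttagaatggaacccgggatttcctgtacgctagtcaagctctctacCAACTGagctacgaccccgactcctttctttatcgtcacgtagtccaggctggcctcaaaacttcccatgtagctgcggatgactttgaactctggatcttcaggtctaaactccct
Cdkn1b downstream: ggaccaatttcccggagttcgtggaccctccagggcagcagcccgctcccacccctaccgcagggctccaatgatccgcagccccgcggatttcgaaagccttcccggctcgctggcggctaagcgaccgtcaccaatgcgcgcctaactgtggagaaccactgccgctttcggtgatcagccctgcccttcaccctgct
Cdkn2a intron: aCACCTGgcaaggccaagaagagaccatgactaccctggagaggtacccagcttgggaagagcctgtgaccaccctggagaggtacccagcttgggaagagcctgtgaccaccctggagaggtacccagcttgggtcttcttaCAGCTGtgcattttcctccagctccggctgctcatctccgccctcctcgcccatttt

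The Cdk6 window held a RUNX match at bases 18 to 23, a SOX match at bases 130 to 135 and an E-box at bases 149 to 154. Across all summit windows of the aNPC H3K27ac list, 13.6% held a RUNX match, 8.17% a SOX match and 64.1% an E-box. The Ccnd3 promoter window held a RUNX match at bases 7 to 12 and a FOX match at bases 36 to 42, and these were found in 13.8% and 2.63% of the windows of the lA list. The Ccnd2 window held 2 E-boxes, at bases 14 to 19 and 25 to 30. The windows of the Ccnd1 promoter, the Ccnd3 intron, Cdkn1b and Cdkn1c held no match to any of the 8 motifs, which says only that these letters are not in those 200 bp. The Cdkn2a window contained a repeat, in which a stretch of 39 bases starting at base 33 was followed directly by an exact copy.

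The 10 genes differed in direction (plot of the peaks per window). H3K27ac peaks were fewer in lA than in aNPC at 4 genes, Cdk6, Ccnd2, Cdkn1a and Cdkn1b, where 30.9% of all genes with a peak at either stage had fewer. They were more numerous in lA at 5 genes, Ccnd1, Ccnd3, Cdkn1c, Cdkn2a and Cdkn2b, where 49.7% of all genes had more. A count can also change where a region is split into more peaks. At Cdkn2b every region was listed at all 3 stages, so the change from 4 to 5 peaks brought no new region. At Cdkn2a, which shares peaks with it, the only new region lay at its most downstream coding start. Cdkn2c had 5 peaks at both stages. Within 5 kb of the genes, Cdkn1b had 2 more peaks in lA, Cdkn1a as many as in aNPC, and Cdkn2b and Cdkn2c fewer. Counting only peaks nearest to a member's own start, 6 genes had fewer and 4 had more, against 28.7% and 43.9% of all genes counted in this way. For H3K4me1, 4 genes had fewer peaks in lA and 6 had more, against 24.2% and 60.3% of all genes. When each H3K4me1 list was shortened to the length of the shortest, the balance turned at the members and over all genes alike. Then 6 members had fewer, 3 more and 1 as many, with window totals of 97, 87 and 89 peaks, and 48.3% of all genes had fewer and 33.8% more. Members held a median of 6, 4.5 and 5 H3K27ac peaks in aNPC, eA and lA, and the median over all genes was 3 at each stage. In the 20 kb windows, the numbers of members in either direction were near the background, and the largest decreases in H3K27ac peaks among them were those of Cdk6 and Ccnd2.

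**Figure D1:**
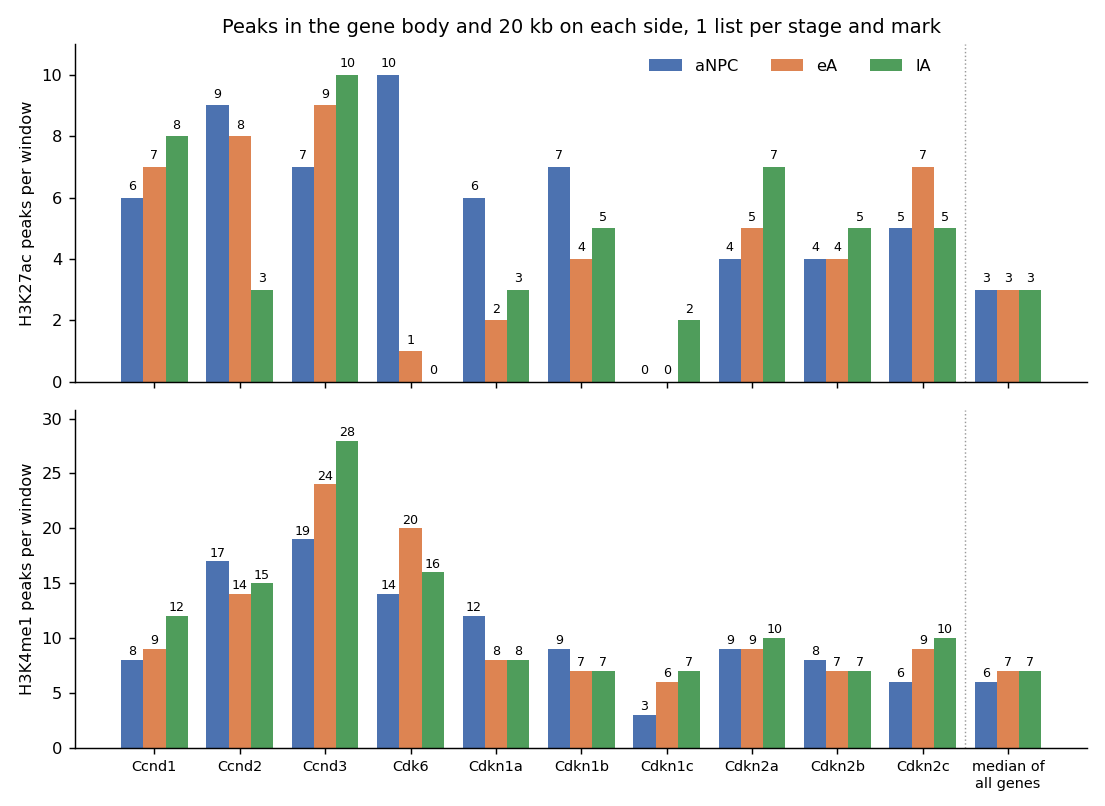
Bars give the number of H3K27ac peaks (top) and H3K4me1 peaks (bottom) per window in aNPC, eA and lA, for each of the 10 genes and as the median over all 22359 coding genes; each bar is 1 list, so there are no error bars. H3K27ac at Cdk6 drops from 10 peaks to 1 and 0, and at Ccnd2 from 9 and 8 to 3, while H3K4me1 peaks stay listed at both.

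Among the D cyclins, Ccnd2 was listed with 9, 8 and 3 H3K27ac peaks at the successive stages. Of these peaks, 2, 3 and 1 were nearest to the start of the neighbour 9630033F20Rik, which left 7, 5 and 2 nearest to that of Ccnd2. A decrease by 6 or more peaks from aNPC to lA was found at 1.95% of all coding genes. The median gene had 3 peaks in aNPC, so many genes could not lose 6. Genes with at least 9 peaks in aNPC are compared below, with Cdk6. The strongest distal region of Ccnd2 lay in an intron 17.8 kb downstream of the start (chr6:127082985-127084092). It stood above 97.1% of the aNPC list and above 39.6% of the eA list, its width went from 1083 bp to 199 bp, and it had no peak in lA. H3K4me1 was listed in this region at all 3 stages, its peaks of 1068, 1222 and 1229 bp standing above 96.8%, 90.5% and 90.9% of their lists. The Ccnd2 start itself was flanked on its downstream side by an H3K27ac region of 2334 bp that was listed throughout, above 95.3%, 91.5% and 92.4% of the lists. Upstream, the sites 12.2 and 12.7 kb from the start held H3K27ac in aNPC only, and the site 4.46 kb upstream held it in aNPC and eA.

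At Ccnd1, H3K27ac peaks at the promoter were listed in aNPC and not in lA, while 4 other regions appeared after aNPC (plot of peaks at the D cyclin genes). In aNPC, peaks 0.331 kb downstream and 0.364 kb upstream of the start stood above 89.6% and 88.8% of the list. In eA, the downstream site held 2 peaks, the stronger above 49.6% of the list, and the upstream site held none. In lA, both were absent from the list. A region 1.45 kb upstream stood above 91.8% of the aNPC list, was absent in eA and stood above 26.3% in lA. By contrast, the regions 9.38 and 3.80 kb downstream of the start were listed in eA and lA but not in aNPC, and those 3.26 kb downstream and 3.30 kb upstream in lA only. All of these 4 regions carried H3K4me1 already in aNPC. An exonic region 1.85 kb downstream of the start held H3K27ac at every stage, above 69.7%, 63.1% and 14.5% of the lists. The region 10.0 kb downstream, just past the 3′ end, was listed at every stage, above 37.9%, 84.5% and 80.9% of the lists. One further region, 24.6 kb downstream, covered the promoter of the neighbouring gene Oraov1 and was listed at all stages. The summits of the regions 10.0 and 9.38 kb downstream also lay within the body of Oraov1.

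Ccnd3 had 7, 9 and 10 H3K27ac peaks and the most H3K4me1 peaks of the 10 genes, with 19, 24 and 28. These counts are not scaled to the length of its window, 134.6 kb. Per 100 kb, Ccnd3 had 14.1, 17.8 and 20.8 H3K4me1 peaks, fewer than Ccnd2 with 26.0, 21.4 and 23.0. Its annotation has an upstream start and another one 88.4 kb further down. The upstream promoter had no H3K27ac peak in aNPC or eA and one in lA, above 54.1% of the list, with another 0.494 kb downstream that also appeared in lA only. H3K4me1 was present at this promoter at all stages, above 88.2%, 84.3% and 85.8% of the lists. The downstream start was flanked by an H3K27ac region of 1325 bp at every stage, above 79.8%, 85.6% and 91.2%. An intronic region 13.2 kb from the upstream start (chr17:47654808-47656016) had neither mark in aNPC. In eA it held an H3K27ac peak of 234 bp above 27.3% of the list, and in lA one of 1209 bp above 73.9%. H3K4me1 was found there in eA, above 70.0%, and in lA as 2 peaks above 89.1% and 86.9%. Of the 13 H3K27ac regions in this window, 2 lay at promoters of the neighbours Taf8, Bysl and Med20, and both were listed at all stages.

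**Figure D2:**
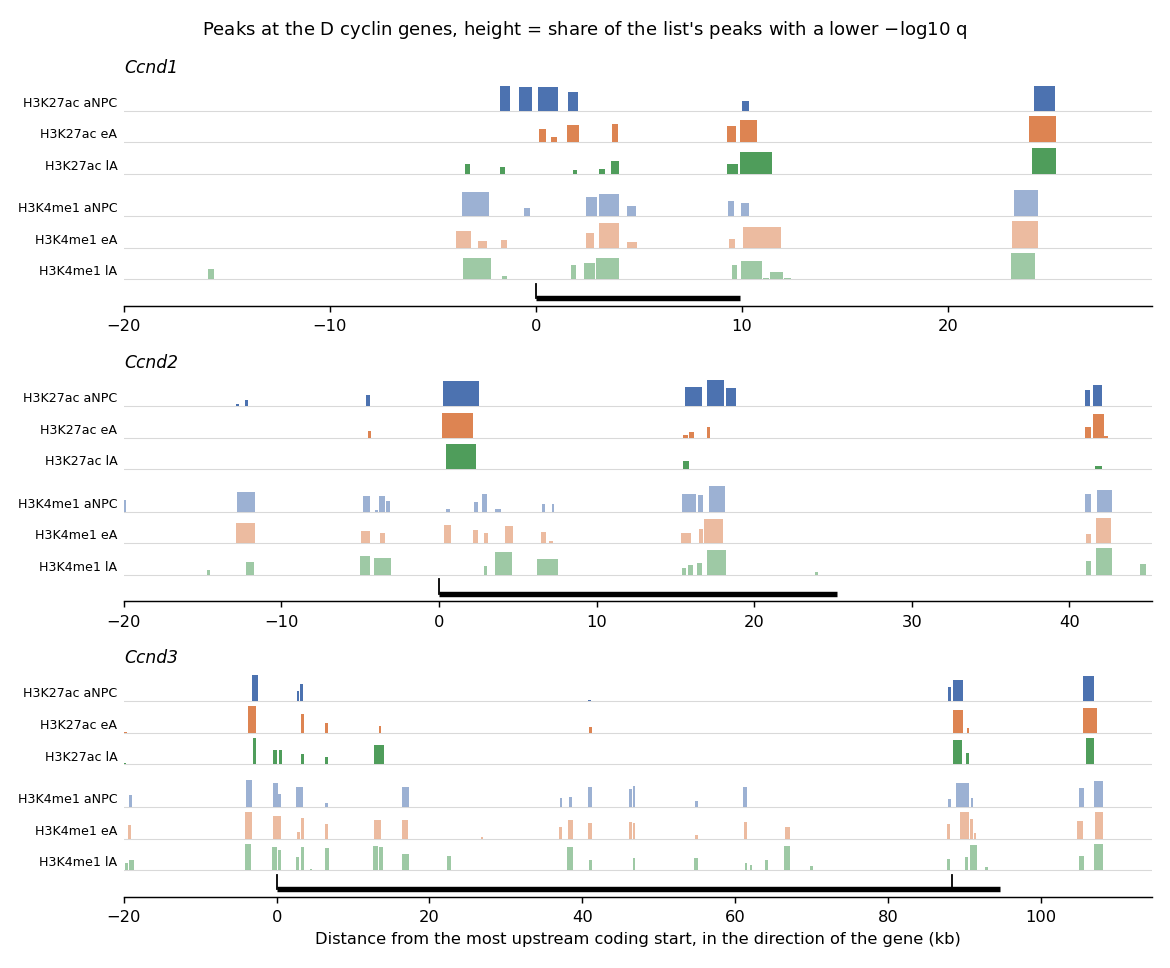
Peaks of the 6 lists at Ccnd1, Ccnd2 and Ccnd3 along the distance from the most upstream coding start (kb, positive in the direction of the gene); the height of a block is the share of its list with a lower −log10 q, the black bar is the gene and ticks are coding starts. The Ccnd1 promoter blocks are seen in aNPC and not in lA, the Ccnd2 block 17.8 kb downstream shrinks in eA and is missing in lA, and the Ccnd3 block 13.2 kb downstream appears in eA.

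Cdk6, the kinase partner of the D cyclins, had 10 H3K27ac peaks at the progenitor stage, of which 1 was left on day 1 and 0 on day 5. The aNPC count was 4 at a −log10 q of 5 or more and 6 among peaks nearest to the start of Cdk6, the others being nearest to Gm17590 or Fam133b. A decrease of 10 or more from aNPC to lA was found at 0.581% of all coding genes, and the absence of any peak in lA after at least 1 in aNPC at 4.24% of genes with a peak in aNPC, Cdk6 being 1 member of 9. Of the genes with at least 9 peaks in aNPC, 2.55% had at most 3 in lA, and both members with that many, Cdk6 and Ccnd2, were among them; these limits were chosen after the values were seen. The strongest Cdk6 peaks in aNPC lay in an intron 56.6 and 61.8 kb downstream of the start, the former 1363 bp wide, and stood above 74.9% and 77.8% of the list. Another lay between them, 60.8 kb downstream, above 48.1%. The other distal peaks were weak, above at most 16.1% of the list. All 9 regions outside the promoter had no H3K27ac peak in eA. The promoter region itself went from 909 bp in aNPC, above 72.1% of the list, to 374 bp in eA, above 67.7%, and was not listed in lA.

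H3K4me1 at Cdk6 was listed with 14, 20 and 16 peaks. The site 61.8 kb downstream stood above 98.6% of the aNPC H3K4me1 list and above 90.2% in eA, and was not listed in lA. The sites 56.6 and 60.8 kb downstream likewise had H3K4me1 in aNPC and eA and not in lA. Next to the start, an H3K4me1 peak 1.31, 1.17 and 1.22 kb upstream was in every list, above 90.1% in aNPC, 77.9% in eA and 98.6% in lA. Thus the promoter of Cdk6 in lA carried H3K4me1 without a listed H3K27ac peak. One weak H3K27ac peak in aNPC, 129.2 kb downstream, lay at the annotated promoter of Gm17590 inside Cdk6.

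Of the CIP/KIP inhibitors, Cdkn1a, a target of p53 that halts the cycle after DNA damage, had 6, 2 and 3 H3K27ac peaks. Its main distal region 12.3 kb upstream (chr17:29215081-29216902) was listed at all stages. It stood above 99.7% of the aNPC list, the highest rank of any member peak of that stage, and above 87.0% in eA and 82.7% in lA. The region 3.66 kb downstream of the first start, next to another annotated start, was also listed throughout, above 88.5%, 79.9% and 77.9%. Its lA peak began past the 100 bp that count as promoter, so Cdkn1a enters the counts of promoters without a peak in lA. The regions 24.8 and 29.7 kb downstream, of which the latter stood above 72.7% of the aNPC list, held H3K27ac in aNPC only and H3K4me1 at all 3 stages. H3K4me1 peaks at Cdkn1a numbered 12, 8 and 8, and a decrease by 4 or more was found at 3% of all coding genes.

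Cdkn1b, whose product p27 holds cells in a resting state, had 7, 4 and 5 H3K27ac peaks. Its promoter and a region 7.02 kb from the start, past the 3′ end, were marked at each stage. The latter was 1822, 1806 and 1841 bp wide and stood above 97.5%, 96.5% and 97.9% of the lists. A region 1.71 kb downstream of the start was listed in eA and lA and not in aNPC. The peaks that were missing in eA and lA were a group of 4 small ones, 21.6 to 23.5 kb downstream, above 4.36% to 56.7% of the aNPC list.

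Cdkn1c, an imprinted gene that encodes p57, had no H3K27ac peak in aNPC or eA and 2 in lA. These lay 13.1 and 14.2 kb from the start, beyond the 3′ end, and stood above 30.3% and 9.95% of the list. H3K4me1 peaks numbered 3, 6 and 7. Both at a −log10 q of at least 5 and with equal list lengths they numbered 3, 2 and 6. An H3K4me1 peak of 1166 bp appeared 13.5 kb from the start in eA, above 88.5% of the list, where aNPC had none. At its promoter H3K4me1 was listed throughout, above 63.7%, 47.9% and 57.9%, and H3K27ac never was.

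**Figure D3:**
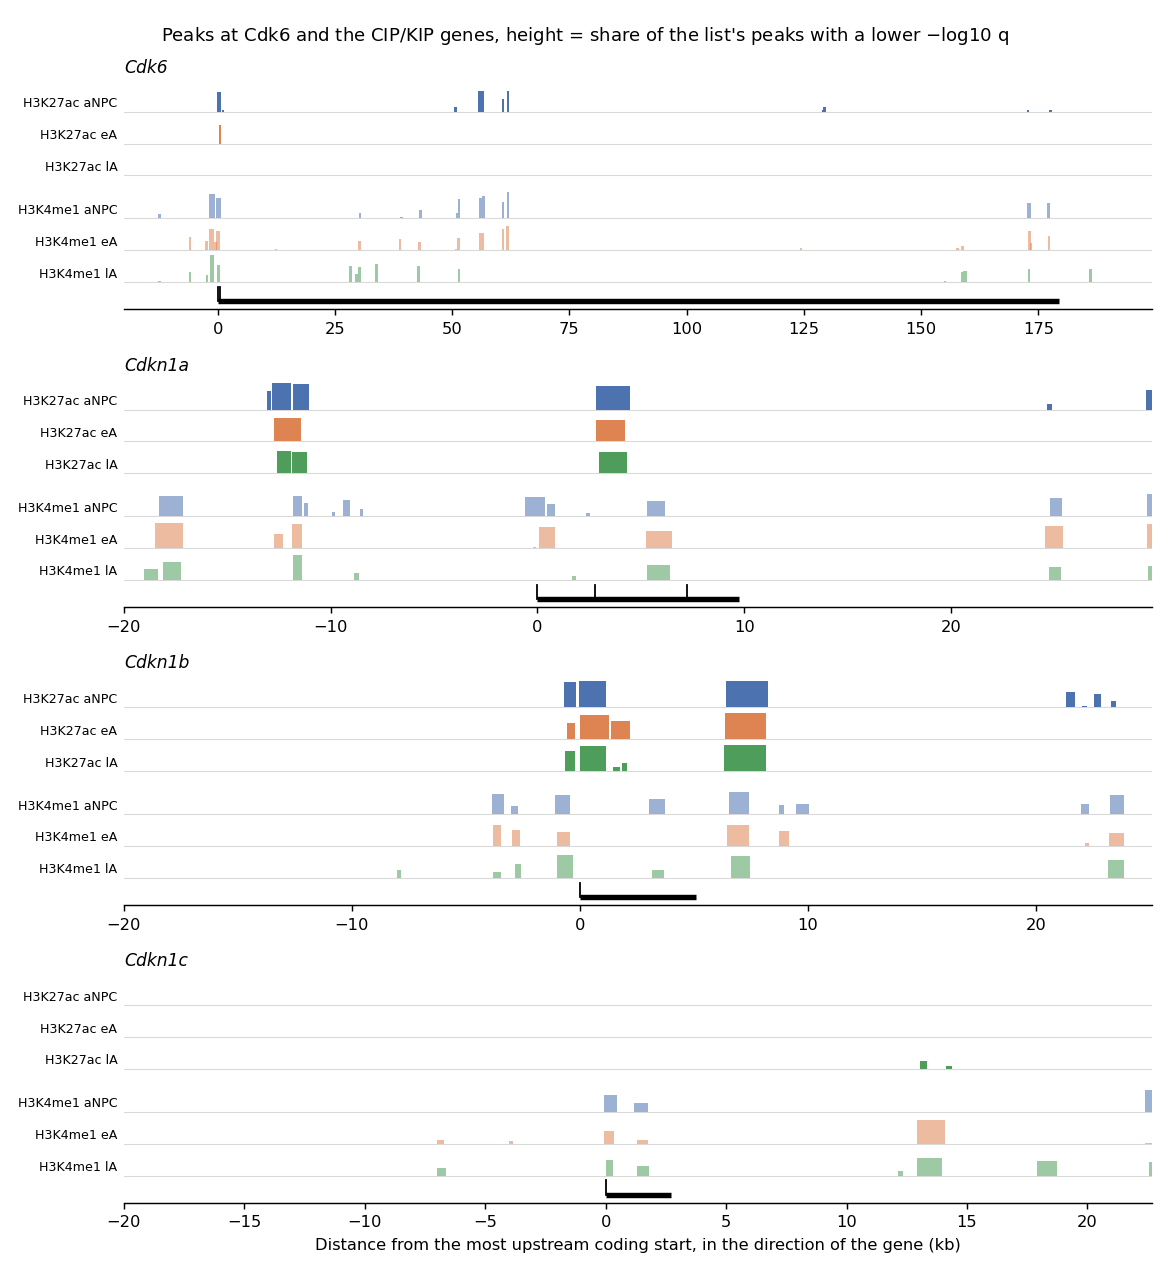
Peaks of the 6 lists at Cdk6, Cdkn1a, Cdkn1b and Cdkn1c, drawn against distance from the most upstream coding start (kb), with block height as the share of the list with a lower −log10 q, the gene as a black bar and starts as ticks. The lA row of H3K27ac at Cdk6 is empty, the blocks 12.3 kb upstream of Cdkn1a and 7.02 kb downstream of the Cdkn1b start are present at each stage, and the first H3K27ac blocks of Cdkn1c appear in lA.

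Cdkn2a and Cdkn2b lie next to each other, so their windows share peaks. Cdkn2a encodes the INK4 inhibitor p16Ink4a and, from an upstream first exon, the p53 activator p19Arf. The upstream start was covered by H3K27ac at all stages, above 88.6%, 90.8% and 91.0% of the lists. The p16Ink4a start, 12.5 kb further down, had no H3K27ac peak in aNPC. In eA it was covered by a peak above 62.4% of the list and in lA by one above 86.7% (chr4:88927113-88928297 for the merged region, which in lA also held a weaker peak outside the promoter). H3K4me1 was already present at this start in aNPC, above 61.9%, and stayed in eA and lA, above 76.1% and 81.9%. The intronic region 7.73 kb from the upstream start held H3K27ac at each stage, above 94.5%, 83.5% and 96.0%, and no H3K4me1 peak overlapped it at any stage. This is the region with the repeated stretch printed above, and whether the repeat affected the read counts was not tested.

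At the promoter of Cdkn2b, which encodes p15Ink4b, the H3K27ac peaks spanned 868, 1817 and 1437 bp from aNPC to lA and stood above 64.0%, 94.3% and 86.5% of the lists. Its H3K4me1 peaks were listed at each stage. Cdkn2c, which encodes p18Ink4c, held H3K27ac at both of its starts at every stage. The first start stood above 95.2%, 94.6% and 94.6% of the lists and the region 0.712 kb downstream above 95.6%, 85.9% and 81.2%. A further region 9.94 kb from the start, past the 3′ end, stood above 82.4%, 93.1% and 77.5%, and the region 9.18 kb upstream lay at a promoter of the neighbour Faf1.

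**Figure D4:**
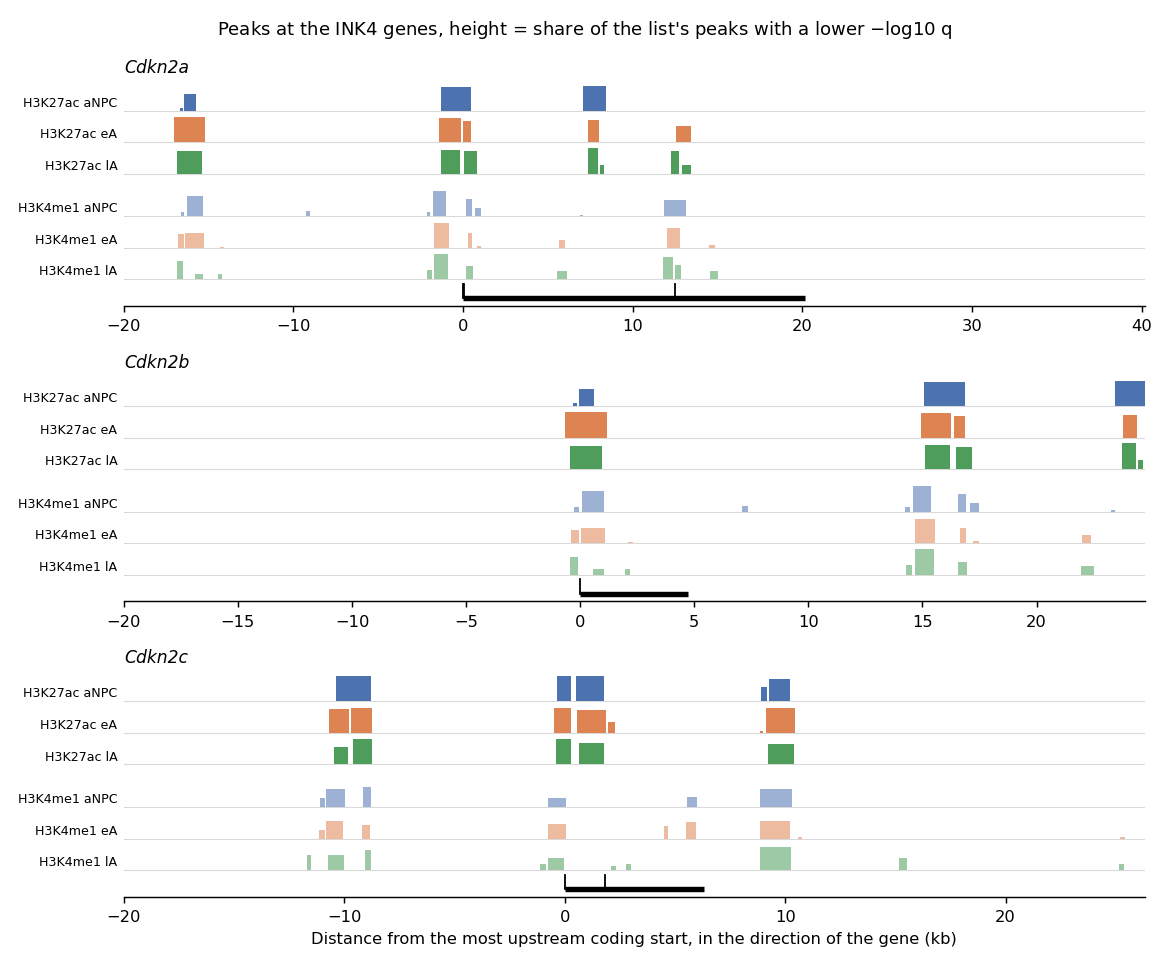
Peaks of the 6 lists at Cdkn2a, Cdkn2b and Cdkn2c against distance from the most upstream coding start (kb), with block height as the share of the list with a lower −log10 q, the gene as a black bar and starts as ticks; Cdkn2a and Cdkn2b are neighbours and share blocks. H3K27ac at the p16Ink4a start of Cdkn2a, at the second tick, is absent in aNPC and present in eA and lA.

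Promoters were taken as the 1 kb before and the 100 bp after each coding start. Of the 10 genes, 8, 7 and 5 had an H3K27ac promoter peak at the successive stages, against 50.6%, 53.2% and 48.2% of all genes. Where the summit had to lie in the promoter, the numbers were 5, 4 and 4, against 34.3%, 36.4% and 35.5% of all genes. Ccnd3, Cdkn1b, Cdkn2a, Cdkn2b and Cdkn2c had an overlapping peak at every stage, for Ccnd3 at its downstream start in aNPC and eA and at its upstream start in lA. Ccnd1, Cdk6 and Cdkn1a had one in aNPC and none in lA, that is 3 of 8 members against 10% of all genes with a promoter peak in aNPC. None of the 2 members without one in aNPC, Ccnd2 and Cdkn1c, had one in lA, where 5.37% of such genes did. With 1 kb on either side of the start, 9, 9 and 7 members had an H3K27ac peak, against 52.4%, 55.4% and 51.7% of all genes. By that measure Ccnd1 and Cdk6 had one in aNPC and none in lA, 2 of 9 members against 6.7% of all genes, while Ccnd2 and Cdkn1a had one throughout. H3K4me1 promoter peaks were listed for 9, 8 and 8 members, against 55.4%, 53.6% and 52.7% of all genes, and Ccnd1 was the one with a peak in aNPC and none later.

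Merging overlapping H3K27ac peaks of the 3 stages gave 46 distal regions in the windows of the 10 genes. Of these, 19 (41.3%, 95% Wilson interval 28.3 to 55.7%) held a peak in aNPC only, 5 (10.9%, 4.73 to 23.0%) in lA only and 9 (19.6%) at all stages. Over all 115804 distal regions, the shares were 23.9%, 21.7% and 19.2%. The intervals cover counting error over regions, which are not replicates, and regions of 1 gene are not independent. Cdk6 alone held 8 of the 19 regions marked in aNPC only. Among peaks with a −log10 q of at least 5, 11 of 34 distal regions (32.4%, 19.1 to 49.2%) were marked in aNPC only, against 23.6% of all such regions, a share that lies within the interval of the members. The interval also held the share of all regions, 23.9%, with 5 kb (10 of 32) and with 50 kb (23 of 70) on each side of the genes.

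**Figure D5:**
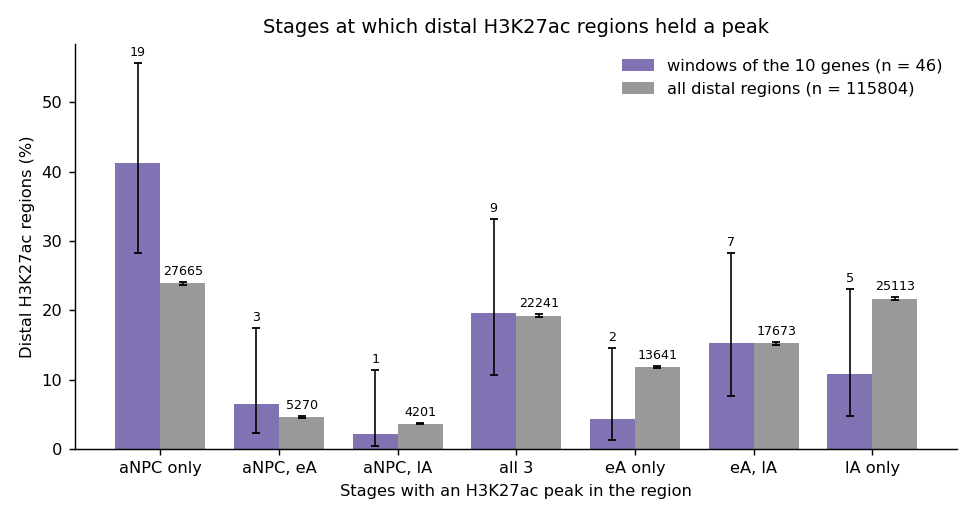
Share of distal H3K27ac regions (%) by the stages at which they held a peak, for the 46 regions in the windows of the 10 genes and for all 115804 regions; bars carry 95% Wilson intervals for counting error, and the numbers above them are region counts. Regions marked in aNPC only make up 41.3% in the windows and 23.9% of all regions.

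H3K4me1 at these distal regions was then set beside H3K27ac. Of the 14 distal regions that lacked H3K27ac in aNPC, 8 (57.1%, 32.6 to 78.6%) held an H3K4me1 peak in aNPC, and over all such regions the share was 49.2%. Of the 22 distal regions with H3K27ac in aNPC and none in lA, H3K4me1 was listed at 15 in aNPC, at 16 in eA and at 10 in lA (45.5%, 26.9 to 65.3%). Over all such regions, 54.9% had H3K4me1 in lA. Both shares of all regions lie within the counting intervals of the members. Where summits had to lie inside, the shares were lower, 37.5% (6 of 16) at the members against 25.8% over all regions before H3K27ac, and 12.5% (3 of 24) against 30.4% after it. At Ccnd2, the regions that kept H3K4me1 in lA included the one 17.8 kb downstream, and at Cdk6 it was the one 172.7 kb downstream.

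The rest of the pathway was examined through 31 other genes of the cell cycle. Their promoters held H3K27ac peaks in 30, 29 and 22 cases from aNPC to lA, and Cdkn2d, the remaining INK4 gene, had none at any stage. The 8 genes with a peak in aNPC and none in lA were the G1/S cyclin gene Ccne2, the transcription factors E2f1 and E2f5, the mitotic cyclins Ccnb1 and Ccnb2, the proliferation marker Mki67, the replication helicase subunit Mcm2 and the topoisomerase Top2a. That is 8 of 30, against the 10% of all genes given above. Where the summit itself had to lie in the promoter it was 4 of 23, and the share of all genes was not computed by that rule. For Mcm2, the promoter peak was already missing in eA. With 1 kb on either side of the start, E2f1 and E2f5 had a peak at all stages. The other 6 did not have one in lA, 6 of 30 against 6.7% of all genes with such a peak in aNPC. By that measure Mcm2 still had a peak in eA. Cdk4, the other kinase of the D cyclins, Cdk2, Rb1, Rbl1 and Rbl2 held a promoter peak throughout, as did Myc and Mycn. H3K4me1 promoter peaks were listed for 28, 29 and 26 of the 31 genes. Of the 8 genes named above, 7 still had one in lA, while Mcm2 had none at any stage.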

How the data were processed

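H3K27ac and H3K4me1 ChIP-seq peaks of aNPC, eA and lA were taken from 6 deposited lists, each from 2 replicates. The authors aligned the reads uniquely to mm9 with Bowtie, merged replicates with SAMtools (version 0.1.19 in the submitters' processing notes) and called peaks with MACS2 without input. The deposited −log10 values give the summit q-value of each peak. They were used only for ranks within a list and for the alternatives with a −log10 q filter and with equal list lengths. The deposited fold is the enrichment at the summit over local background, and it was not compared between lists. Library depth is unknown here.

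Mitochondrial peaks were left out. Genes and 51710 coding starts came from GENCODE M1 (mm9). An overlap of 1 bp counted throughout. A promoter spans the 1 kb before and the 100 bp after a coding start, and distal peaks touch no promoter of any coding gene. For regions merged over the stages, the class is that of the merged region, and distances are those of its strongest summit from the most upstream coding start. The printed sequences were chosen among each gene's highest-ranked distal region and the promoter regions not marked at every stage, without windows on a UTR. All 10 genes were named, and of the 31 other pathway genes, those with a promoter H3K27ac peak at some stages only were named in full. The genes, lists and motifs were chosen with earlier results of these data known. No test was made, since each stage and mark has 1 list. The counting was tested on simulated data. Alternatives were a −log10 q of at least 5, equal list lengths, flanks of 5 and 50 kb, a promoter of 1 kb on either side, overlap by the summit, and peaks nearest to the gene's own start. Of the 51 samples of the series, 8 RNA-seq libraries could not be assigned to a group because their labels conflict, and the RNA-seq and knockdown samples were not used here. Python 3.11.15, NumPy 2.4.6, pandas 2.3.3, SciPy 1.17.1 and matplotlib 3.10.9 were used.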

Additional observations from a re-analysis of the deposited data

How the results depend on the processing

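With 50 kb on each side, the windows held 71, 66 and 65 H3K27ac peaks at the successive stages, of which 45, 44 and 47 were distal, where the 20 kb windows held 35, 26 and 30 distal peaks. With overlap judged by the summit, 5 members in aNPC, 4 in eA and 4 in lA had an H3K27ac promoter peak. By the same rule, 12.5% of the distal regions with H3K27ac in aNPC and none in lA held H3K4me1 in lA. Of 23 other pathway genes with a promoter peak in aNPC, 4 then had none in lA. The distal regions marked in aNPC only came to 11 at a −log10 q of 5 or more and to 10 with 5 kb on each side. Those marked in eA only were 2 of 46 in the 20 kb windows (4.35%), against 11.8% of all distal regions. They were 1 of 32 with 5 kb, 6 of 70 with 50 kb and 1 of 40 among peaks nearest to the member's own start, against the same 11.8%. With 1 kb on either side of the start they were 0 of 40, against 11.5%, and by the summit 4 of 56, against 13.1%. Those marked in lA only were 3 of 32 with 5 kb and 9 of 70 with 50 kb, against 21.7% of all distal regions. The cause was not tested; a wider or narrower window holds more or less sequence by construction. Cdk6 and Ccnd2 had fewer H3K27ac peaks in lA than in aNPC under each of the 7 alternatives. Among these, the promoter of 1 kb on either side leaves window counts unchanged by construction. At a −log10 q of at least 5 the difference at Cdk6 was 4 peaks in aNPC against 0. The direction of smaller H3K27ac differences (lA minus aNPC) depended on the setting. Within 5 kb, Cdkn1b went from -2 to 2, Cdkn2b from 1 to -1, Cdkn2c from 0 to -1, and Cdkn1a and Cdkn1c to 0. At a −log10 q of 5 or more, Ccnd1 went from 2 to 0. By the nearest start, 6 members had fewer and 4 more, against 28.7% and 43.9% of all genes. Within 50 kb, 3 had fewer and 6 more, against 31.2% and 55.7% of all genes. For H3K4me1, equal list lengths gave 6 members with fewer and 3 with more, against 48.3% and 33.8% of all genes. No paired analysis was possible because the replicates were merged before peaks were called, and for the same reason no replicate could be left out. Depth is unknown, no input was used, and weak peaks such as those of Cdkn1c lie near the threshold of the caller.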

Other observations

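The windows of the 31 other cell cycle genes held 150, 181 and 150 H3K27ac peaks in aNPC, eA and lA, promoter peaks included, summed over genes. Of these genes, 14 had fewer in lA than in aNPC and 12 had more, where 30.9% and 49.7% of all genes with a peak at either stage did, and the median change over the list was 0. The counts at E2f2, a factor that drives S phase genes, were 7, 8 and 2, and those at E2f3 were 3, 4 and 4. Those at the cyclin gene Ccne2 were 3, 4 and 0, and those at Ccne1 were 3, 5 and 4. Cdk1 had 3, 5 and 5 peaks and Ccnb2 had 1, 3 and 3. At the pocket protein genes that restrain E2F factors, the counts were 10, 15 and 17 for Rb1, 2, 5 and 7 for Rbl1, and 5, 5 and 7 for Rbl2. Cdk4 had 5, 7 and 9 peaks. These genes were picked out after their values were seen, and no difference was tested.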
